A study of Mus musculus with 4 samples.

Results

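Histone deacetylases remove acetyl groups from lysines of histones and other proteins, and the 9 Hdac genes considered here, with Sirt1, span the enzyme classes of the family. They were chosen by name, as the genes Hdac1, Hdac2, Hdac3, Hdac4, Hdac5, Hdac6, Hdac7, Hdac9, Hdac11 and Sirt1, and every probe set that the platform annotation gives to one of them alone was taken. This gave 11 probe sets for 9 of the 10 genes, out of 20380 probe sets with 1 gene (12393 genes) in the table. No probe set was assigned to Hdac4, so Hdac4 was not analysed here, and Hdac7 and Hdac11 had 2 probe sets each.

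The class I enzymes encoded by Hdac1, Hdac2 and Hdac3 work in the nucleus inside corepressor complexes. The class IIa enzymes encoded by Hdac4, Hdac5, Hdac7 and Hdac9 bind MEF2 transcription factors; when kinases such as CaMKII and protein kinase D phosphorylate them, 14-3-3 proteins hold them in the cytoplasm and MEF2 targets are released. In the heart, class IIa enzymes are known as brakes on hypertrophic growth, while inhibitors of class I enzymes blunt it. Hdac6 encodes a cytoplasmic deacetylase of tubulin, Hdac11 the single class IV enzyme, which also removes fatty acyl groups, and Sirt1 a nuclear deacetylase that consumes NAD and acts on PGC-1alpha, FOXO factors and p53.

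RNA came from the left ventricle of mice, on 1 pooled array per group and 4 arrays in all. The groups were wild-type (WT) sham-operated mice, WT mice with transaortic constriction ("banded"; a narrowing of the aorta that overloads the ventricle with pressure), sham-operated IL-18 knockout mice and banded IL-18 knockout mice. The labels describe the knockout as IL-18 null on a C57BL/6 background for the banded knockout pool. They give 6 pooled mice and a banding time of 1 week for that pool and 5 mice for the knockout sham pool. The series design gives 5 to 6 animals for every group. Strain, age and banding time of the WT mice are not given in the sources used here. The series asks what the cytokine IL-18 does to expression in hypertrophy under pressure overload. Pooling leaves 1 value per group, so a difference between 2 arrays has no replicate check, no error and no p-value. In heart tissue, fewer cells of a type and less RNA per cell cannot be told apart.

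Across all genes the WT sham array correlated least with the other 3. Over the 7366 single-gene probe sets that reached the floor (64 intensity units, log2 6) on 1 or more arrays, its log2 values correlated at Pearson's r of 0.669 with WT banded, 0.820 with knockout sham and 0.830 with knockout banded, while the other 3 arrays correlated at 0.862 to 0.931 with each other. These correlations run across probe sets, which are not independent replicates. Control probe sets at the 3′ end, middle and 5′ end of Gapdh, Actb and the dap spike-in were also compared. The mean 3′ minus middle log2 signal was 4.14 ± 1.06 in WT sham, 0.55 ± 1.26 in WT banded, 2.86 ± 1.77 in knockout sham and 2.66 ± 1.65 in knockout banded (SD over 3 transcripts of 1 array). The mean 3′ minus 5′ log2 signal was 4.38 ± 1.79 in WT sham, 1.03 ± 0.86 in WT banded, 4.49 ± 1.26 in knockout sham and 4.46 ± 1.60 in knockout banded. WT banded had the lowest mean by both measures. The 3′ minus 5′ mean of WT sham lay beside those of both knockout arrays, but its parts did not all do so. Actb was at 5.81 in WT sham, 3.04 in knockout sham and 2.92 in knockout banded, and dap at 2.37, 5.31 and 6.10. Gapdh was at 4.96, 5.13 and 4.36. In WT sham every dap signal and the Actb middle and 5′ signals were below log2 6. The 3′ signal of each transcript was lowest in WT sham, for Actb 8.96 against 11.14 to 12.92 elsewhere. The means therefore do not show that WT sham is like the knockout arrays. Each result that uses the WT sham array has no version without it, because that array is the whole group. The cardiomyocyte markers Myh6, Tnnt2, Tnni3, Actc1, Myl2, Ryr2, Ttn and Pln, 8 of 8, were at or above the floor on all 4 arrays, so defining markers of the labelled tissue were present.

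Sirt1 and Hdac11 had the widest ranges over the 4 arrays, so the stretches before their annotated starts are shown, from RefSeq on GRCm38.p6. Each ends at the last base before the gene's outermost annotated start. Capitals mark matches, on either strand, to the E-box CACGTG, the CCAAT box CCAAT, the GC box GGGCGG and the CRE half-site TGACG.
Sirt1, chr10:63339036-63339285, minus strand: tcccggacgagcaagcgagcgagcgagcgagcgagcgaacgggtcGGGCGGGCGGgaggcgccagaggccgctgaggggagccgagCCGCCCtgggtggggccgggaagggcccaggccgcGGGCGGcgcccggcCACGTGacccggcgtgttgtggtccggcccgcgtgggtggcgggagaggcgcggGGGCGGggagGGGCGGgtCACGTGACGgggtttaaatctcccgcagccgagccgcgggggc
Hdac11, chr6:91156565-91156669, plus strand: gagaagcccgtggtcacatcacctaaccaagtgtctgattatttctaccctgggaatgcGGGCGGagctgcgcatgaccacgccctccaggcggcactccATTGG

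The Sirt1 stretch of 250 bases held 6 GC boxes (a pair of them overlapping), 2 E-boxes and 1 CRE half-site that overlaps the second E-box. Its bases were 79.2% G or C, the highest share among the 12 windows of the members, and the matches were not adjusted for base content. Of 32817 windows of the same length before annotated mouse starts, 6.02% held an E-box, 32.7% a GC box, 33.8% a CCAAT box and 17.7% a CRE half-site. These shares count windows with 1 or more matches and are not numbers of matches per window. The Hdac11 window of 250 bases held 1 GC box, 1 CCAAT box and 1 CRE half-site, the last of them downstream of the bases printed. The Hdac2 window held 1 GC box and none of the other 3. A MEF2 site by its consensus, found in 2.92% of all windows, was present in 1 of the 12 windows of the 8 members in the table, that of Hdac5. These matches describe letters only, and no binding was measured.

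Hdac11, the class IV member, had lower signal in the banded than in the sham array of both genotypes. Its brighter probe set had an intensity of 569.7 in WT sham, 63.7 in WT banded, 338.3 in knockout sham and 101.3 in knockout banded. Both sham arrays were therefore above both banded arrays, and WT banded lay just under the floor. The difference, on the log2 scale and with values floored at log2 6, was -3.15 in WT, a bound because of that floor, or at least 8.90-fold lower. In the knockout it was -1.74, or 3.34-fold lower, a difference measured on both arrays, and of 4477 genes measured on both knockout arrays 12 had a lower one. Genes below the floor on either knockout array are left out of that ranking. The mean 3′ minus middle signal of the control transcripts was 2.86 and 2.66 in these knockout arrays and 4.14 and 0.55 in the WT pair, and its part in the result was not tested. The genotypes differed less than the surgeries for Hdac11, by -0.75 in sham and by 0.66, also a bound, in banded (knockout minus WT).

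The other Hdac11 probe set did not follow. Its intensities were 22.3 in WT sham, 39.1 in WT banded, 29.4 in knockout sham and 22.0 in knockout banded, all below the floor, so it gives no direction. Taking the mean of both probe sets, the Hdac11 difference was -0.82 in WT and -0.64 in the knockout, both bounds short of 2-fold, since the averaged banded values lay below the floor. The brighter probe set is of the type shared between transcripts of a gene (its identifier ends in _a_at), and when such probe sets were left out the Hdac11 probe set that remained did not reach the floor. The Hdac11 result thus rests on 1 probe set.

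Sirt1, the NAD-dependent deacetylase, was set apart by the WT sham array. Its intensity was 788.4 in WT sham, 123.8 in WT banded, 243.2 in knockout sham and 195.3 in knockout banded. The WT sham value was more than 3-fold above each of the others, which lay within 2-fold of each other. With banding the log2 difference was -2.67 in WT (6.37-fold lower), and of 4047 genes measured on both WT arrays 6 had a lower one. Genes below the floor on either WT array, Hdac11 among them, are left out of that ranking. In the knockout the Sirt1 difference was -0.32, which is within 2-fold. Between the sham arrays Sirt1 was lower in the knockout by a log2 difference of -1.70 (3.24-fold), while between the banded arrays the difference was 0.66. The WT banding and sham genotype differences subtract the same array and so are not separate results. The mean 3′ minus middle signal of the control transcripts in the WT pair was 4.14 and 0.55, and its part in the WT differences of Sirt1 and Hdac2 was not tested.

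Hdac2, a class I enzyme, had an intensity of 278.1 in WT sham, 95.1 in WT banded, 176.3 in knockout sham and 207.4 in knockout banded. The WT arrays held both its highest and its lowest value, with both knockout arrays between them. The log2 difference with banding was -1.55 in WT (2.92-fold lower) and 0.23 in the knockout. Between genotypes it was -0.66 in sham and 1.12 in banded, the latter 2.18-fold higher in the knockout. That call was lost with cyclic loess normalization (0.97) and with a floor at log2 7 (0.70).

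Hdac1, the close relative of Hdac2 in the same complexes, showed the smallest spread of the 4 measured members. Its intensity was 270.2 in WT sham, 166.9 in WT banded, 132.5 in knockout sham and 206.7 in knockout banded. With banding the log2 difference was -0.70 in WT and 0.64 in the knockout, both within 2-fold; after quantile normalization the WT value was -1.17, past 2-fold. Between the sham arrays Hdac1 was lower in the knockout by a log2 difference of -1.03 (2.04-fold), which became -0.91 with cyclic loess. Between the banded arrays it differed by 0.31.

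**Figure D1:**
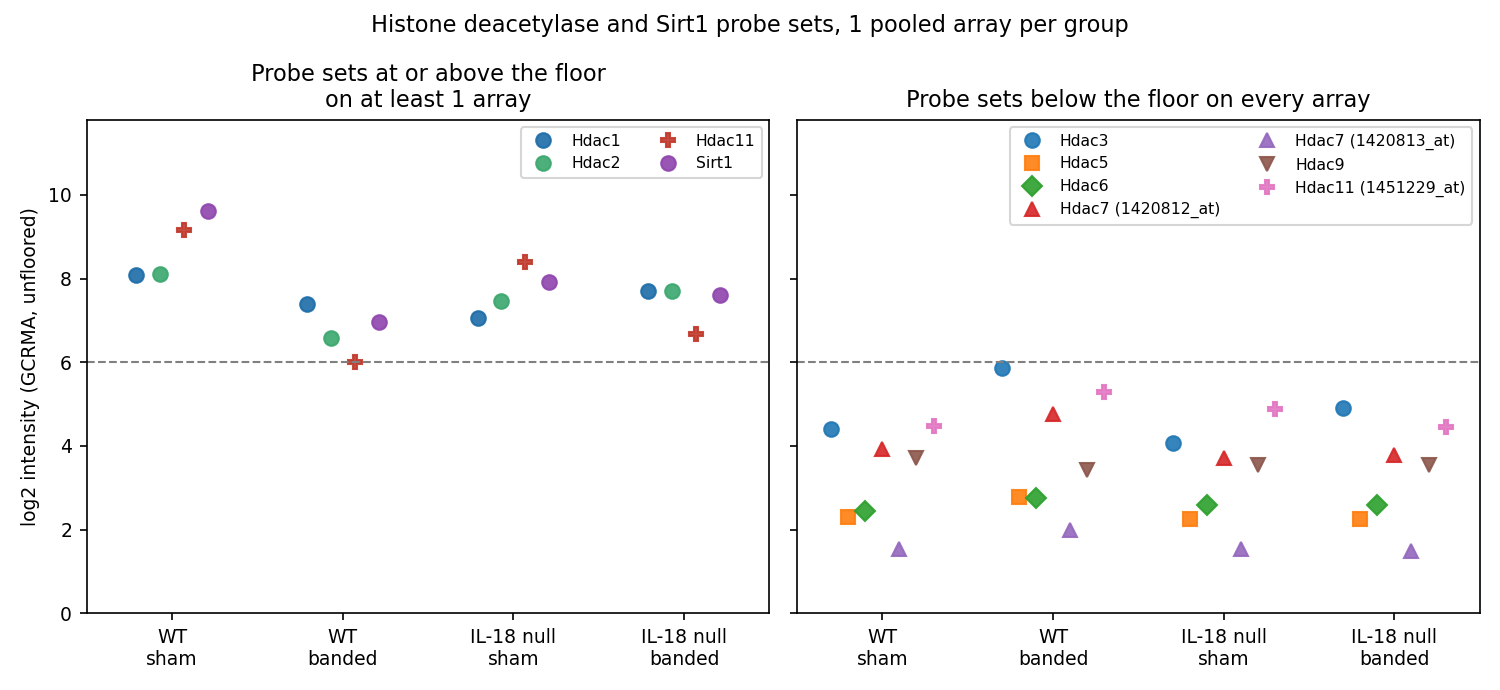
Log2 intensity (y axis, unfloored) of each of the 11 probe sets on the 4 arrays (x axis), 1 point per pooled array, with the floor at log2 6 as a dashed line. Heights of different probe sets are not comparable; within a probe set, Hdac1, Hdac2, Hdac11 and Sirt1 each have their highest point on the WT sham array, and the 7 probe sets on the right lie below the floor throughout.

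WT sham thus held the highest value of all 4 measured probe sets, and for Hdac2, Hdac11 and Sirt1 WT banded held the lowest. Over all 7366 single-gene probe sets that reached the floor on 1 or more arrays, 35.4% were highest in WT sham and 24.4% were also lowest in WT banded. This is a count over 4 probe sets on the same 4 arrays, and nothing particular to the family is read from it.

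The remaining 7 probe sets were below the floor on every array and entered no comparison. Hdac3, the class I enzyme of NCoR and SMRT complexes, ranged from 16.9 in knockout sham to 58.6 in WT banded, close under the floor. The class IIa members gave Hdac5 intensities of 4.8 to 6.9 and Hdac9 intensities of 10.8 to 13.1. Hdac7, a class IIa member prominent in endothelial cells, was at 13.0 to 27.0 and 2.8 to 4.0 on its 2 probe sets. Hdac6 was at 5.4 to 6.7. Hdac3, Hdac5, Hdac6, both Hdac7 probe sets and the dimmer Hdac11 probe set had their highest value on the WT banded array, but below the floor, where no direction is given. These values do not show that the transcripts are absent; they show only that these probe sets gave no signal above the floor. Of all 20380 single-gene probe sets, 63.9% were below the floor on every array.

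In counts, 3 of the 4 members entering the WT banding comparison were at least 2-fold lower (Hdac2, Hdac11 and Sirt1) and 0 higher, where over all 7200 probe sets entering 11.5% were lower and 24.9% higher. Hdac11 was below the floor in WT banded, so it entered through WT sham alone and could not count as higher. The members' median log2 difference was -2.11 beside -0.02 over all probe sets. In knockout banding, 1 of 4 was lower (Hdac11) and 0 higher, beside 4.2% lower and 6.64% higher of 6743 probe sets, with medians of -0.04 and 0.06. Between the sham arrays, 2 of 4 were lower in the knockout (Hdac1 and Sirt1) and 0 higher, beside 6.02% lower and 18.4% higher of 6797, with medians of -0.89 and -0.05. Between the banded arrays, 1 of 4 was higher in the knockout (Hdac2) and 0 lower, beside 5.11% higher and 10.9% lower of 7039, with medians of 0.66 and 0.06. The 4 comparisons use each array 2 times and are not independent of each other. Another scaling moved the split of all probe sets: quantile normalization gave 19.6% higher and 22.8% lower in WT banding, 5.25% and 5.06% in knockout banding and 15.2% and 12.1% between the sham arrays, and cyclic loess gave 27.8% and 7.46% in WT banding and 3.42% and 12.9% between the banded arrays. After quantile normalization the median of all probe sets in WT banding was -0.34, and against that shift Hdac2 (-2.05), Hdac11 (-3.33, a bound) and Sirt1 (-3.05) still lay more than 1 below.

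**Figure D2:**
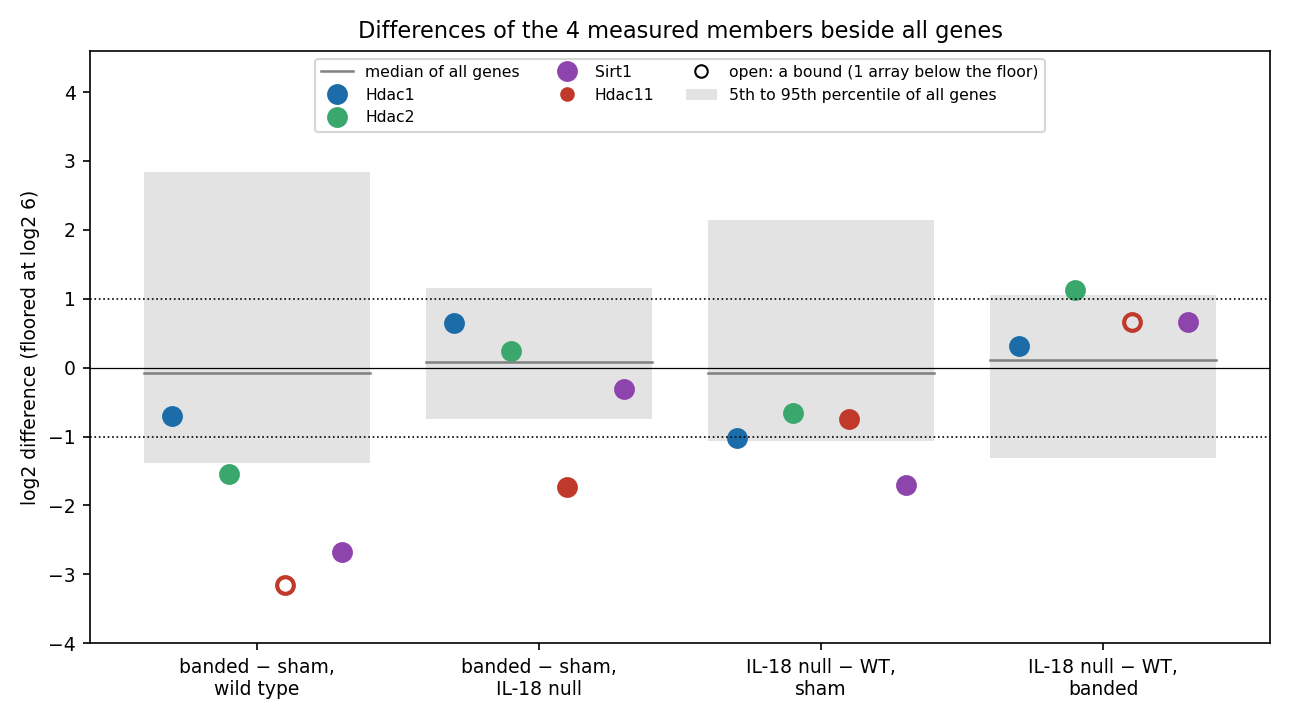
Log2 difference between 2 arrays (y axis, values floored at log2 6) of Hdac1, Hdac2, Hdac11 and Sirt1 in the 4 comparisons (x axis); grey bars span the 5th to 95th percentile of all genes entering, grey lines are their medians, dotted lines mark 2-fold, and open points are bounds. Hdac11 lies below the grey bar in both banding comparisons, at -3.15 and -1.74, while Sirt1 does so in WT (-2.67) and not in the knockout (-0.32). Hdac2 also lies below the bar with banding in WT (-1.55) and just above it between the banded arrays (1.12). Sirt1 lies below it between the sham arrays (-1.70).

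The banding difference was larger (less negative or more positive) in the knockout than in WT for each measured member. As knockout minus WT, it was 1.34 for Hdac1, 1.78 for Hdac2, at least 1.41 for Hdac11 and 2.35 for Sirt1. Over all 7366 probe sets, 18.8% had a value of 1 or more and 24.9% one of -1 or less. With 1 array per group this difference of differences cannot be tested, and it contains the WT sham value with a positive sign.

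An additive fit with a surgery term and a genotype term was run with limma over 7366 probe sets and leaves 1 residual degree of freedom. That degree of freedom holds the difference of the banding differences between genotypes. Its SE and p-values, which also borrow spread from other probe sets, therefore do not measure a spread between replicates. Hdac11 had a banding term of -2.45 ± 0.68 (SE, log2), with an unadjusted p of 0.0165 and an adjusted p of 1.00 by limma with Benjamini-Hochberg adjustment. The banding terms of Sirt1 (-1.49 ± 0.80), Hdac2 (-0.66 ± 0.73) and Hdac1 (-0.03 ± 0.67) had unadjusted p-values in the limma fit of 0.123, 0.409 and 0.970. The genotype terms of the 4 members had unadjusted limma p-values of 0.546 or more. In the limma fit, 0 members and 0 probe sets in all passed an adjusted p of 0.05 for either term (0% of probe sets). At an unadjusted p under 0.05 the limma fit gave 1 member for banding, among 106 probe sets (1.44%), and 0 members for genotype, among 14 (0.19%).

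Genes with the nearest course over the 4 arrays were found by the mean absolute distance of floored log2 values, each centred on its own mean, among 12392 other genes. Nearest to Hdac11 were Tceal1 (distance 0.32) and Cited2 (0.40), and no gene lay within 0.25. For Sirt1 they were Gpr155 (0.09) and Trim34a (0.14), with 20 genes within 0.25. For Hdac2, they were Ska2 (0.03) and Utp11 (0.04), with 434 genes within 0.25. A likeness over 4 arrays is a description of the same 4 hybridisations.

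Around the deacetylases, 8 lists of partner genes held 84 genes, of which 69 had a probe set of their own and 47 reached the floor on 1 or more arrays. Among these genes, with banding in WT 10 of 46 entering were higher by 2-fold or more and 5 lower, where of all 5040 genes entering 21.7% were higher and 12.8% lower. Of those higher, Gata4, Mef2d, Myocd, Gatad2a and Mta1 were below the floor in WT sham. They entered through WT banded alone and could not count as lower, so the count is not evidence of a direction. In the knockout 1 of 45 was higher and 1 lower, beside 6.98% and 2.53% of 4827 genes. Between the sham arrays 3 of 45 were higher in the knockout and 1 lower (16.3% and 6.29% of 4851 genes). Between the banded arrays 0 of 46 were higher and 6 lower (5.7% and 7.74% of 4947 genes). Mef2d between the sham arrays and Myocd between the banded arrays also entered through 1 array alone, which fixed the direction of each.

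Corepressor complex genes went both ways in WT. Of 12 entering, 3 were higher with banding and 1 lower (median -0.42, all genes -0.08). These counts lie near the shares of all genes entering, 21.7% higher and 12.8% lower, and nothing particular to the complexes is read from them. Chd4, the remodelling ATPase of the NuRD complex that holds HDAC1 and HDAC2, had intensities of 119.7 in WT sham, 465.4 in WT banded, 74.2 in knockout sham and 105.0 in knockout banded, a log2 difference of 1.96 with banding in WT and 0.50 in the knockout. Gatad2a and Mta1, also NuRD subunits, were higher in WT by at least 2.22 and at least 1.58. Both were below the floor in WT sham (4.7 and 23.0) and so could only count as higher. Sap30, a Sin3 complex subunit, was lower by a log2 difference of -1.41 in WT and differed by 0.59 in the knockout. In the knockout 0 of 13 corepressor genes passed 2-fold. After quantile normalization the WT split was 3 higher and 4 lower.

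Of the MEF2 factors and their partners, 3 of 7 were higher with banding in WT and 0 lower (median 0.72, all genes -0.08). Of all genes entering, 21.7% were higher and 12.8% lower. Each of the 3 is a bound because WT sham was below the floor. A gene that enters through WT banded alone can only count as higher, so this count is not evidence of a direction. Gata4, a cardiac transcription factor, was listed at 7.2 in WT sham, 402.7 in WT banded, 117.6 in knockout sham and 70.7 in knockout banded, a WT difference of at least 2.65. Mef2d, a partner that class IIa enzymes repress, was higher by at least 1.94, and Myocd, a coactivator of SRF, by at least 1.39. Mef2a and Mef2c, the other MEF2 genes above the floor, differed by -0.71 and 0.72 in WT. The remaining genes entering, Nfatc3 and Srf, differed by 0.02 (also a bound) and -0.01. In the knockout 0 of 6 passed 2-fold. After quantile normalization 3 were higher and 1 lower in WT.

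Among kinases and the phosphatase that act on class IIa enzymes, 2 of 5 were higher and 1 lower with banding in WT (median 0.12). For all genes entering, the shares were 21.7% and 12.8%. In the knockout 0 of 5 passed 2-fold. Ppp2cb, a catalytic subunit of protein phosphatase 2A, was higher by 2.09 in WT, and higher by 1.99 in knockout sham than in WT sham. Both differences subtract the same WT sham value (197.2) and so are not separate results. Camk2g, a CaMKII isoform, was higher by 1.13 in WT (0.55 after quantile normalization), while its other measured probe set was at -0.23. Prkd3, of the protein kinase D family, was lower by a log2 difference of -1.29, and its other measured probe set was at -1.14. Camk2d, the main cardiac CaMKII isoform, differed by -0.75 in WT and 0.34 in the knockout.

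Of the 14-3-3 genes, 1 of 6 was higher in each genotype (all genes 21.7% in WT and 6.98% in the knockout) and 0 lower. These counts use 1 probe set per gene, and other probe sets of the genes differed from it. In WT the gene was Ywhag (1.44), whose other measured probe set was higher by at least 3.32 in WT and differed by -1.30 in the knockout. In the knockout it was Ywhaz (1.07, and 0.97 after either normalization), whose 3 other probe sets that entered there differed by 0.56, -0.33 and 0.18. In WT its counted probe set differed by -0.26, those 3 were higher by 1.76, at least 2.50 and 1.91, and a further one differed by -0.63, a bound.

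Genes of SIRT1 substrates and NAD supply had 3 of 7 members lower and 0 higher with banding in WT (median -0.93, all genes -0.08). Of all genes entering, 12.8% were lower and 21.7% higher there. In the knockout 1 of 7 was lower (median -0.01), beside 2.53% of all genes. The 1 gene lower in both was Ppargc1a, which encodes PGC-1alpha, at -1.18 and -1.42; of its other measured probe sets, 1 was higher in WT (1.83, a bound) and 3 differed by -0.92, -0.68 and -0.15, or by -0.23, -0.14 and -1.76 in the knockout. Nmnat3, an NAD synthesis enzyme, was lower in WT by a log2 difference of -1.07. Parp1, an NAD consumer, was at -1.06, but its other measured probe sets were at 2.14 and 0.38, both bounds. The count in WT was 1 lower with cyclic loess and 5 lower after quantile normalization, with 0 higher in both.

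Of the sirtuin and deacetylase genes beyond the members, 4 of 8 had a probe set of their own and Sirt2 and Sirt3 were above the floor. Sirt3, the main mitochondrial deacetylase, had intensities of 392.1 in WT sham, 835.4 in WT banded, 402.5 in knockout sham and 467.9 in knockout banded, a difference with banding of 1.09 in WT (0.78 after quantile normalization) and 0.22 in the knockout. Between the banded arrays Sirt3 differed by -0.84 (knockout minus WT), or -1.02 with cyclic loess normalization. Sirt2, a largely cytoplasmic deacetylase, differed by 0.96 and -0.45. Of these 2 genes, 1 was past 2-fold with banding in WT, against 2 with cyclic loess and 0 after quantile normalization. Of all genes entering, 21.7% were higher in WT. Of all probe sets, 27.8% were higher there with cyclic loess and 19.6% after quantile normalization. The acetyltransferases (3 genes entering) and the acetyl-lysine readers (4 in WT, 3 in the knockout), which add and read the mark that these enzymes remove, had 0 genes past 2-fold in either genotype. The shares of all genes were 21.7% higher and 12.8% lower in WT, and 6.98% and 2.53% in the knockout. With so few genes, nothing particular to them is read from these counts. Kat2b, which encodes the acetyltransferase PCAF, was at -0.90 in WT and 0.24 in the knockout, and after quantile normalization 1 acetyltransferase gene was lower in WT.

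**Figure D3:**
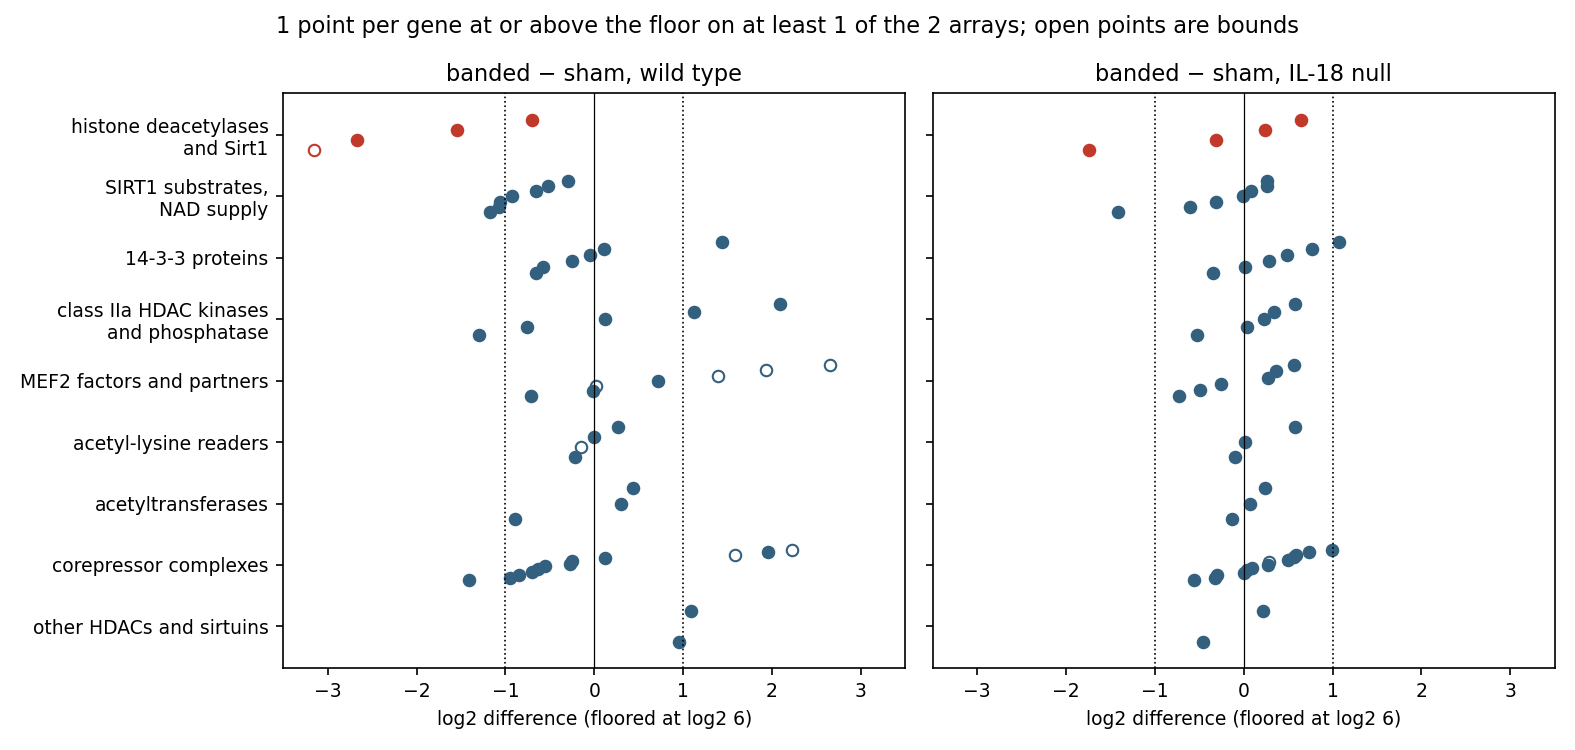
Log2 difference with banding (x axis, values floored at log2 6) for each gene entering, by list (y axis), in WT (left) and knockout (right); filled points were measured on both arrays, open points are bounds, and dotted lines mark 2-fold. The red points of the top row are Hdac1, Hdac2, Hdac11 and Sirt1, of which 3 lie left of -1 in WT and 1 in the knockout.

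Markers of other heart cell types differed between the same arrays, and their part in the members' differences was not tested. Among all genes entering, the share passing 2-fold upward was 21.7% for the WT pair and 6.98% for the knockout pair. A count near these shares is not read as a change particular to a cell type. A marker that enters through the banded array alone cannot count as lower. At the floor in WT sham and WT banded were 6 and 8 endothelial, 5 and 7 macrophage, and 3 and 6 smooth muscle and pericyte markers. In knockout sham and banded 6 and 7 macrophage markers were. These counts are therefore not evidence of a direction. Fibroblast markers had 5 of 7 entering at least 2-fold higher with banding in each genotype, with summed intensities of 7169 and 21797 in WT sham and banded and 11466 and 27785 in knockout sham and banded; Tcf21 was below the floor on every array. Macrophage markers had 4 of 7 higher in WT and 3 of 7 in the knockout, with sums of 4167, 6511, 3978 and 8606 in the order WT sham, WT banded, knockout sham, knockout banded. Endothelial markers had 4 of 8 higher in WT and 0 of 6 in the knockout, with sums of 2778, 5155, 4043 and 3155. Smooth muscle and pericyte markers had 2 of 6 higher in each genotype, with sums of 12131, 17298, 11629 and 11314, and Myh11 and Cnn1 below the floor throughout. Of 5 T and NK cell markers, Cd3d, Cd8a and Nkg7 were below the floor on every array, and the sums were 311, 169, 207 and 212. Cardiomyocyte markers had 1 of 8 higher in WT and 0 in the knockout, with sums of 145028, 183590, 172414 and 165053.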

How the data were processed

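Total RNA was labelled with biotin and hybridised to 4 arrays. The authors deposited 1 intensity per probe set and array, using GCRMA, per the submitters' processing notes; values from 1.5 to 43811.1 show a linear scale. Settings of GCRMA and any scaling after it are not given in the sources used here. Groups came from the sample titles. The table held 22690 probe sets: 20380 with 1 gene, 691 with several, 1555 with none and 64 controls, of which the first were used. The platform annotation was matched to RefSeq (GRCm38.p6) by gene identifier for 20351 probe sets, with 0 symbols changed.

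Values were taken to log2 and floored at log2 6 (64 units) before differences were taken; a probe set entered a comparison with at least 1 of 2 arrays at the floor. Counts used 2-fold (log2 of 1). A gene was represented by its probe set with the highest mean. The additive fit used unfloored values (limma 3.58.1, R 4.3.3, lmFit and eBayes with trend, Benjamini-Hochberg adjustment over 7366 probe sets). The fit and the 2-fold rule were tried on simulated data with a noise SD of 0.52 and the same banding effect in both genotypes. The fit recovered 36% of simulated log2 differences of 1.5 and 99% of those of 3. The 2-fold rule recovered 72% and 99%, and it also called 16.75% of unchanged probe sets. The measured members had larger residual SDs in the fit, 0.67 (Hdac1) to 1.18 (Sirt1), so the simulation does not stand for them. From each related list, up to 4 genes past 2-fold with the largest differences were named. Mef2a, Mef2c, Nfatc3, Srf, Camk2d, Sirt2 and Kat2b were added after their values were seen. Other settings were floors at log2 5 and 7 and none, quantile and cyclic loess normalization, a 1.5-fold threshold, other choices of probe set, and, for the fit, no trend, an adjusted p of 0.1 and no filter on low values. The members and lists were chosen with earlier results of these data known.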

Additional observations from a re-analysis of the deposited data

Results flagged for a closer look

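Hdac1 and Hdac2 had banding differences of opposite sign in the 2 genotypes. The difference of the banding differences (knockout minus wild type, log2) was 1.34 for Hdac1, with -0.70 in WT and 0.64 in the knockout. It was 1.78 for Hdac2, with -1.55 and 0.23. With 1 array per group these differences were not tested. Over all 7366 single-gene probe sets that reached the floor on 1 or more arrays, 2189 (29.7%) were lower in wild type and higher in the knockout.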

How the results depend on the processing

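No paired analysis was possible because each group has 1 array, and leaving an array out removes a group. Counts of member probe sets past 2-fold that moved by over 1.5 times were these. In wild-type banding, 1 was higher without a floor, against 0 with it (Hdac3, unfloored 1.48). In IL-18 null banding, 1 was higher at 1.5-fold against 0 (Hdac1), and 0 were lower against 1 when shared probe sets were left out or all probe sets of a gene were averaged. Between the sham arrays, 1 was lower with cyclic loess and 4 at 1.5-fold, against 2. Between the banded arrays, 0 were higher with a floor at log2 7 or with cyclic loess and 3 at 1.5-fold, against 1. Of 106 alternative values of single members' differences, 61 equalled the main value, so they say nothing on stability. Of the 45 that differed from it, 39 stayed on their side of 2-fold, 6 crossed it and 0 of those past 2-fold changed sign. Sirt1 in wild type stayed between -3.05 and -2.47. The limma fit called 0 members under each of its 5 alternatives; over all probe sets it called 64 for banding and 9 for genotype after quantile normalization, and 245 and 92 of 20380 without the filter, at an adjusted p under 0.05. The smallest adjusted p of a member in these alternatives was 0.174. Signal below the floor limits Hdac3, Hdac5, Hdac6, Hdac7 and Hdac9.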
